A study of Mus musculus with 8 samples.

Results

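Voltage-gated potassium channels of the Kv3 family open only at strongly depolarized membrane potentials and close quickly, which lets fast-spiking neurons keep action potentials narrow and fire at high frequency. PV+ interneurons, the parvalbumin-expressing inhibitory cells of the neocortex, are the best-known cortical cells of this kind. Each Kv3 channel is built from 4 pore-forming subunits, which can be of the same or of different types. The genes described here are *Kcnc1*, which encodes Kv3.1, *Kcnc2*, which encodes Kv3.2, and *Kcnc4*, which encodes Kv3.4, a subunit whose channels inactivate. They were taken by gene name and make up 3 of the 45706 genes in the files, and all 3 passed the filter on low counts.

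The RNA-seq libraries hold ribosome-associated mRNA of mouse primary somatosensory cortex, with 4 CNO and 4 vehicle samples, each of which combined tissue from 4 brains. All mice were PvalbFlp/+;Neurod6Cre/+. They were infected in the first postnatal days, from postnatal day 1, with an AAV whose flox-fdio cassette encodes HA-RPL10a and myc-hM3Dq. They were used between postnatal days 42 and 70, and the paper's methods give a start slightly later than day 42 for the pulldown tissue. Flp recombinase, expressed from the parvalbumin gene, turns the viral construct on, and Cre recombinase, expressed from the pyramidal cell gene Neurod6, removes it. A pan-neuronal promoter (hSyn) drives the construct, and infection was sparse. The construct carries a tagged ribosomal protein, through which ribosomes are pulled down, and hM3Dq, a receptor that raises neuronal activity when its ligand CNO (clozapine-N-oxide) is given. Treatment consisted of 5 injections over about 48 h, with CNO at 1 mg/kg or vehicle. Both groups carried the receptor, and no group without it received CNO.

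Total counts per sample ranged from 44064161 to 49413273, so that 3 counts equal 0.0607 to 0.0681 CPM (counts scaled to sequencing depth), a floor that reflects counting error alone. All 12 PV+ interneuron markers examined were detected, and their summed level was 4377 to 6970 TPM, a share of transcripts corrected for their length, in CNO samples and 2146 to 5324 TPM in vehicle samples. The lowest sum, in vehicle replicate 1, stood apart from the other samples. The 12 pyramidal cell markers were also all detected, at 1417 to 1955 TPM with CNO and 1604 to 2289 TPM with vehicle, and vehicle replicate 1 had the highest sum. Summed markers of other interneurons reached 601 to 699 TPM with CNO and 692 to 810 TPM with vehicle. For CNO and vehicle samples, the ranges were 186 to 295 and 234 to 338 TPM for astrocytes and 479.9 to 888 and 650.5 to 845 TPM for oligodendrocytes. They were 41.95 to 66.6 and 52.8 to 79.9 TPM for microglia, and 22.1 to 63.1 and 33.4 to 49.5 TPM for endothelial cells. No marker of these lists was at 0 in any sample.

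The genes lie on 3 chromosomes of GRCm38 in the GENCODE annotation. *Kcnc1* (ENSMUSG00000058975) spans chr7:46396497-46438704 on the plus strand, and its 3 annotated transcripts include coding sequences of 511 and 585 codons. *Kcnc2* (ENSMUSG00000035681) spans chr10:112271121-112467024 on the plus strand, with 5 annotated transcripts and a longest coding sequence of 642 codons. *Kcnc4* (ENSMUSG00000027895) spans chr3:107438303-107459552 on the minus strand and has 1 transcript with 628 codons. Values are given per gene, so that isoforms of *Kcnc1* and *Kcnc2* cannot be told apart. None of the genes overlaps another annotated gene. Of the distinct 31-base stretches of their transcripts, 0.982% in *Kcnc1*, 0 in *Kcnc2* and 0.385% in *Kcnc4* also occur in transcripts of other genes.

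Over the 8 samples *Kcnc1* and *Kcnc2* correlated at r = 0.904 (log2 CPM), and at 0.592 without vehicle replicate 1. The 250 bases upstream of their RefSeq start sites (GRCm38.p6, plus strand, written 5′ to 3′) are shown because they differ in composition. Capitals mark CpG dinucleotides. For *Kcnc1* the bases are chr7:46396218-46396467, and for *Kcnc2*, which has 4 windows in the RefSeq table, they are chr10:112270871-112271120, the window that ends at the GENCODE start of the gene.

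Kcnc1: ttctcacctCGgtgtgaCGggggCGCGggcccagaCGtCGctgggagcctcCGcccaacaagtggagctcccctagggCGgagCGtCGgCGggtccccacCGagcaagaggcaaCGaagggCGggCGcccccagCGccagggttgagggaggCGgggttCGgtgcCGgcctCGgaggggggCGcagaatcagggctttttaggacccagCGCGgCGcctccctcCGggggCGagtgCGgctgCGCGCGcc
Kcnc2: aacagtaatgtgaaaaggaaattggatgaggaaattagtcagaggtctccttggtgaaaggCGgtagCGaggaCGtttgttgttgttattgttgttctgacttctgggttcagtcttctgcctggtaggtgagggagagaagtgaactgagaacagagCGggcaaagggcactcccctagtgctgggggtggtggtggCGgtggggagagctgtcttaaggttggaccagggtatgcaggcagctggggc

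The *Kcnc1* window had 30 CpG dinucleotides and a GC content of 74.4%. The *Kcnc2* window had 5 CpG dinucleotides and a GC content of 52.8%. Over the 32851 promoter windows of the table, the medians were 6 CpG dinucleotides and 52.4% GC, so that *Kcnc1* was above 95.4% of windows in GC content and *Kcnc2* near the middle. Motifs of activity-regulated factors were searched on both strands: TGACGTC (cAMP response element), TGACTCA (AP-1) and GTGGGCG (EGR). None of these letters occurred in the 250-base windows of *Kcnc1*, *Kcnc2* or *Kcnc4*. Of all windows, 2.78%, 4.46% and 7.02% held them in that order. The *Kcnc4* window (chr3:107458899-107459148) lies inside the gene as GENCODE annotates it, not upstream of it.

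*Kcnc1* was the most abundant of 40 pore-forming Kv subunit genes in every sample, measured as TPM, which corrects for transcript length. In vehicle replicates 1 to 4 its level was 173.7, 361.6, 367.7 and 325.6 TPM. In CNO replicates 1 to 4 it was 385.6, 271.2, 295.8 and 336.7 TPM. Vehicle replicate 1 was far below the other 7 samples, which overlapped between the groups.

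*Kcnc2* was the third of the 40 genes by mean level, and its place ranged from 3 to 9 over the samples. Its vehicle levels were 46.1, 85.4, 104.1 and 99.7 TPM in replicate order. With CNO they were 110.5, 82.6, 104.2 and 132.2 TPM. Vehicle replicate 1 was again the lowest, CNO replicate 4 was the highest, and CNO replicates 1, 3 and 4 exceeded every vehicle sample, replicate 3 by very little (104.17 against 104.06 TPM).

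*Kcnc4* was much less abundant and took place 23 of 40. Its levels were 18.5, 15.4, 15.6 and 16.8 TPM in vehicle replicates 1 to 4. They were 12.4, 17.02, 15.7 and 11.3 TPM in CNO replicates 1 to 4. Here vehicle replicate 1 was the highest sample, and CNO replicates 1 and 4 were below all vehicle samples while CNO replicates 2 and 3 were among them.

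**Figure D1:**
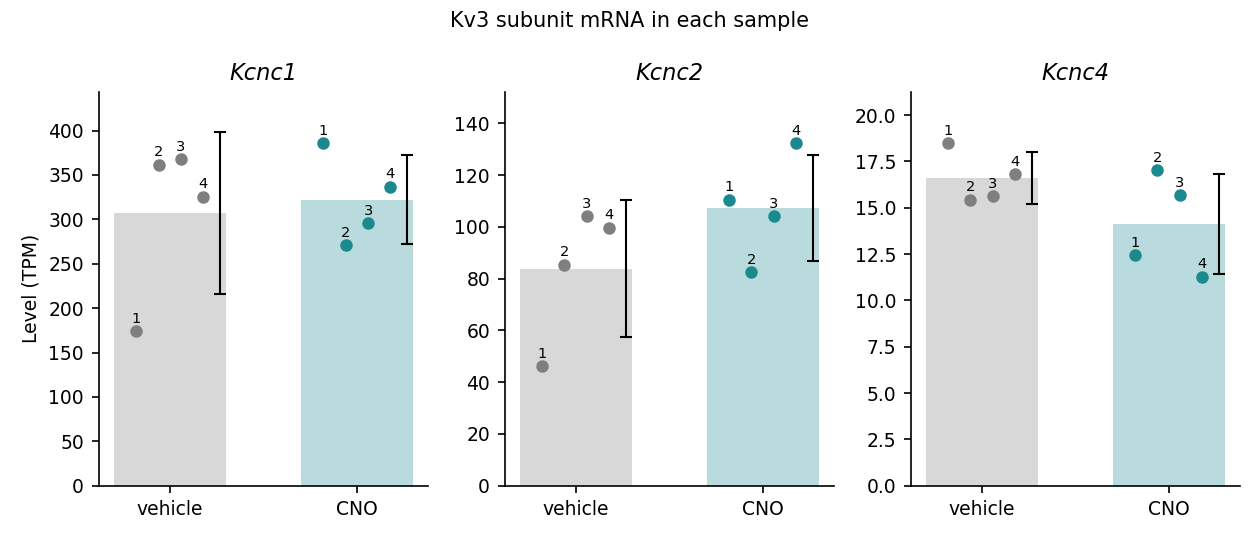
Levels of the 3 genes in TPM (vertical axes, starting at 0) in vehicle and CNO samples, with points numbered by replicate, bars for the group mean and whiskers for the SD (n = 4). Vehicle replicate 1 is the lowest sample for *Kcnc1* (173.7 TPM) and *Kcnc2* (46.1 TPM) and the highest for *Kcnc4* (18.5 TPM), and the groups overlap in each gene.

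The order of levels was the same in all 8 samples. The level of *Kcnc1* exceeded that of *Kcnc2* by 1.74 ± 0.23 (SD, n = 8) on the log2 TPM scale, a 3.33-fold difference that ranged from 2.55-fold to 4.23-fold. *Kcnc2* exceeded *Kcnc4* by 2.60 ± 0.66 (SD, n = 8), from 2.49-fold in vehicle replicate 1 to 11.7-fold in CNO replicate 4. For each of the 3 pairs a two-sided exact sign-flip permutation test over 8 samples gave p = 0.00781 before and after adjustment over the pairs. This is the smallest value that 8 samples allow. It follows from the same order in all 8 samples and does not measure the size of a difference against its spread.

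**Figure D2:**
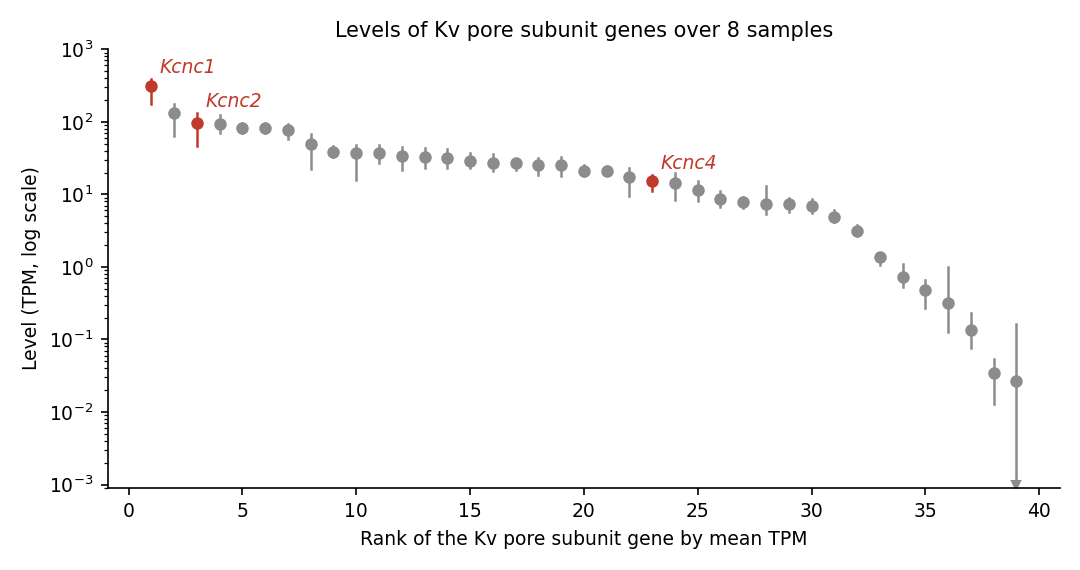
TPM (log scale) of the 39 Kv pore subunit genes with a mean above 0, ranked by mean level; points are means and lines the range over the 8 samples, with a downward mark where the lowest sample is at 0. *Kcnc1* leads at a mean of 314.7 TPM, *Kcnc2* is at 95.6 TPM and *Kcnc4* at 15.3 TPM.

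Sustained activation by CNO was compared with vehicle to ask whether mRNA of these channels on ribosomes changes with activity. None of the 3 genes passed the threshold. The mean level of *Kcnc1* was 322.3 ± 50.1 TPM with CNO and 307.2 ± 90.9 TPM with vehicle (SD, n = 4 each). On the log2 scale CNO minus vehicle came to 0.15 (standard error 0.23; edgeR's quasi-likelihood test on counts, adjusted p = 0.867). The 95% interval of this difference runs from 0.778-fold to 1.58-fold.

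*Kcnc2* had the largest difference of the 3 genes. Its mean was 107.4 ± 20.4 TPM with CNO and 83.8 ± 26.4 TPM with vehicle (SD, n = 4 each), a log2 fold change of 0.43 (standard error 0.26, adjusted p = 0.817, edgeR). The 95% interval runs from 0.902-fold to 2.00-fold, so that neither a small decrease nor a rise of the 1.5-fold size used for calling is outside it.

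*Kcnc4* differed in the other direction, with 14.1 ± 2.69 TPM with CNO and 16.6 ± 1.40 TPM with vehicle (SD, n = 4 each). On the log2 scale the difference was -0.17 (standard error 0.12; edgeR, adjusted p = 0.817), with a 95% interval from 0.746-fold to 1.06-fold. Exact permutation of the TPM values over the 70 assignments of samples (two-sided) gave p = 0.829 for *Kcnc1*, 0.200 for *Kcnc2* and 0.257 for *Kcnc4*, and 0.829, 0.386 and 0.386 after adjustment over the 3 genes. Over all genes, edgeR's quasi-likelihood test called 0 of 17495 (0%), where a call needs more than 1.5-fold change, a mean level over 1 TPM and an adjusted p below 0.05. An unadjusted p below 0.05 was reached by 716 genes (4.09%) and by 0 of these 3. DESeq2's Wald test called 10 genes and edgeR's likelihood ratio test on robust dispersion 12, none of them among these 3. The groups did not overlap in 423 genes (2.42%), and in 0 of these 3.

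The difference of *Kcnc1* rested on vehicle replicate 1. Without that sample its log2 fold change was -0.060 (standard error 0.13), and that of *Kcnc2* was 0.20 (standard error 0.17). *Kcnc4* stayed at -0.14 (standard error 0.13) without it. Vehicle replicate 1 had 49.4% of the mean *Kcnc1* level of the other vehicle samples, 47.8% of that of *Kcnc2* and 116% of that of *Kcnc4*, all in TPM.

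**Figure D3:**
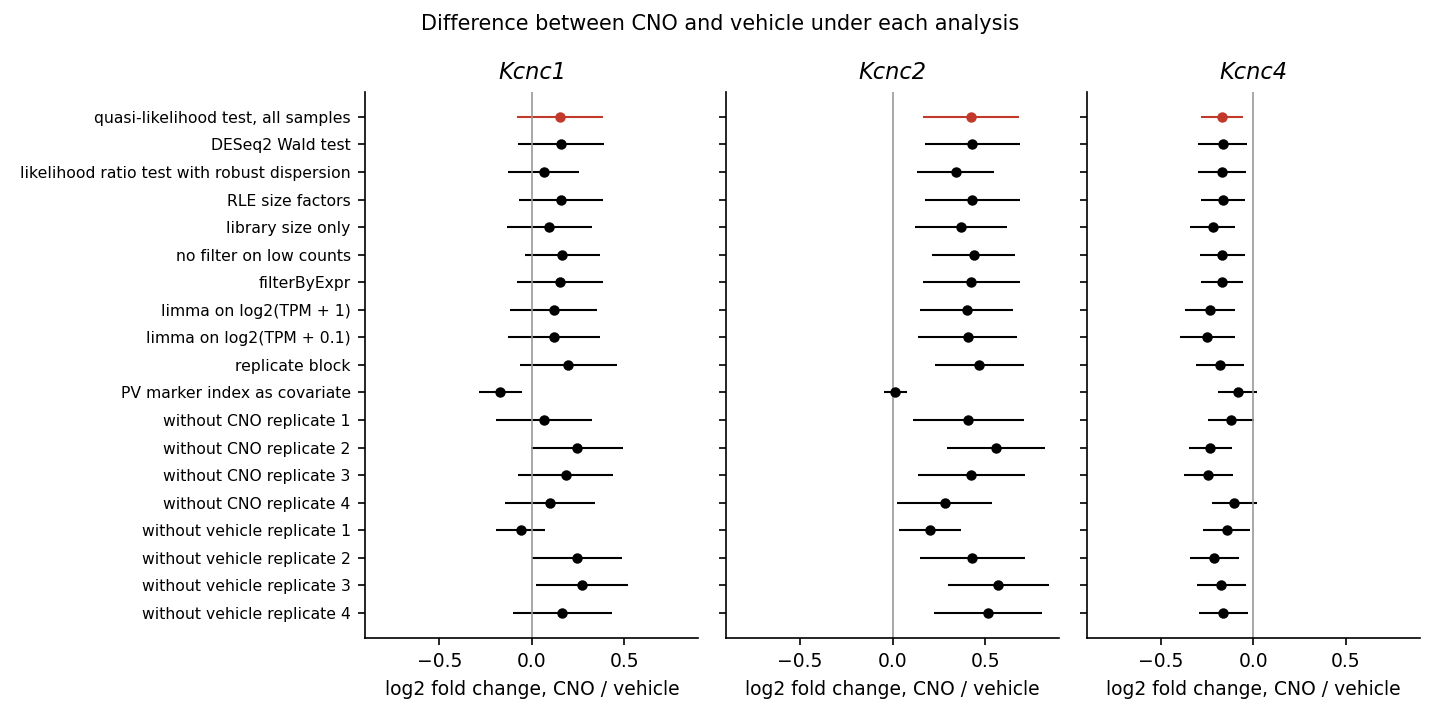
Log2 fold changes between CNO and vehicle for each gene (points) with their standard errors (lines) from the quasi-likelihood test on all samples (red) and from each alternative (black). *Kcnc1* moves from 0.15 to -0.060 without vehicle replicate 1, and *Kcnc2* from 0.43 to 0.015 with the PV marker index as a covariate.

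The amount of PV+ interneuron mRNA relative to pyramidal cell mRNA was summarized by an index. It is the mean log2 CPM of the 12 PV+ interneuron markers minus that of the 12 pyramidal cell markers, with no Kv3 gene among them. The index therefore moves with either set of markers. In bulk RNA of this kind, fewer cells of a type and less RNA per cell cannot be told apart. The index was -0.55, 0.75, 1.19 and 1.05 in vehicle replicates 1 to 4 and 1.33, 0.63, 1.151 and 1.79 in CNO replicates 1 to 4. Vehicle replicate 1 was the lowest and CNO replicate 4 the highest, and the other 6 samples overlapped between groups.

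*Kcnc2* followed the index closely. In both groups its log2 CPM put the 4 samples in the same order as the index did, and over the 8 samples Pearson's r was 0.999 (exact permutation over all sample orders, p = 4.96e-05, adjusted over the 3 genes 0.000149) and Spearman's rho 0.976 (p = 0.000397 by the same permutation, adjusted 0.00119). Without vehicle replicate 1 and CNO replicate 4, the samples farthest from the median index, r was 0.994 (exact permutation over 720 orders, p = 0.00278). No gene among the 17471 tested outside both marker lists had a higher r with the index, although 13.4% of them had an r above 0.9.

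*Kcnc1* followed the index less tightly, with r = 0.906 (exact permutation, p = 0.00923, adjusted 0.0138) and rho = 0.833 (p = 0.0154, adjusted 0.0231 by permutation). Without the same 2 samples r was 0.600 (exact permutation, p = 0.231), without vehicle replicate 1 alone it was 0.602 (exact permutation, p = 0.154), and without CNO replicate 4 alone it was 0.930 (exact permutation, p = 0.0171). Pearson's r thus depended strongly on vehicle replicate 1. Without the same 2 samples rho was 0.771 (exact permutation over 720 orders, p = 0.103). The slope on the index was then 0.46 log2 CPM per unit, against 0.54 over all samples. Of the 17471 genes outside both marker lists, 12.8% had a higher r with the index than *Kcnc1*. *Kcnc1* was highest in CNO replicate 1, where the index was 1.33, and not in CNO replicate 4.

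*Kcnc4* ran the other way, with r = -0.691 (exact permutation, p = 0.0568, adjusted 0.0568) and rho = -0.738 (exact permutation, p = 0.0458, adjusted 0.0458). Pearson's r was -0.447 without the same 2 samples (exact permutation, p = 0.390). A lower r with the index than that of *Kcnc4* over all samples was found in 17.3% of the 17471 genes. Per unit of the index, log2 CPM changed by 0.75 for *Kcnc2*, 0.54 for *Kcnc1* and -0.18 for *Kcnc4*.

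With the index in the quasi-likelihood model, the log2 fold change was 0.015 for *Kcnc2* (standard error 0.063), -0.17 for *Kcnc1* (standard error 0.12) and -0.084 for *Kcnc4* (standard error 0.11). The adjusted p of edgeR's test was 1.00 for each of them. Without the index the standard error of *Kcnc2* was 0.26. The index was measured in the same samples after treatment, and its markers leaned with treatment. With CNO, 12 of 12 PV+ interneuron markers were higher (median log2 fold change 0.41) and 11 of 12 pyramidal cell markers lower (median -0.13). None of these markers had an adjusted p below 0.05 in edgeR's quasi-likelihood test. Whether the markers respond to CNO or the amount of PV+ interneuron mRNA differed between pulldowns was not tested.

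**Figure D4:**
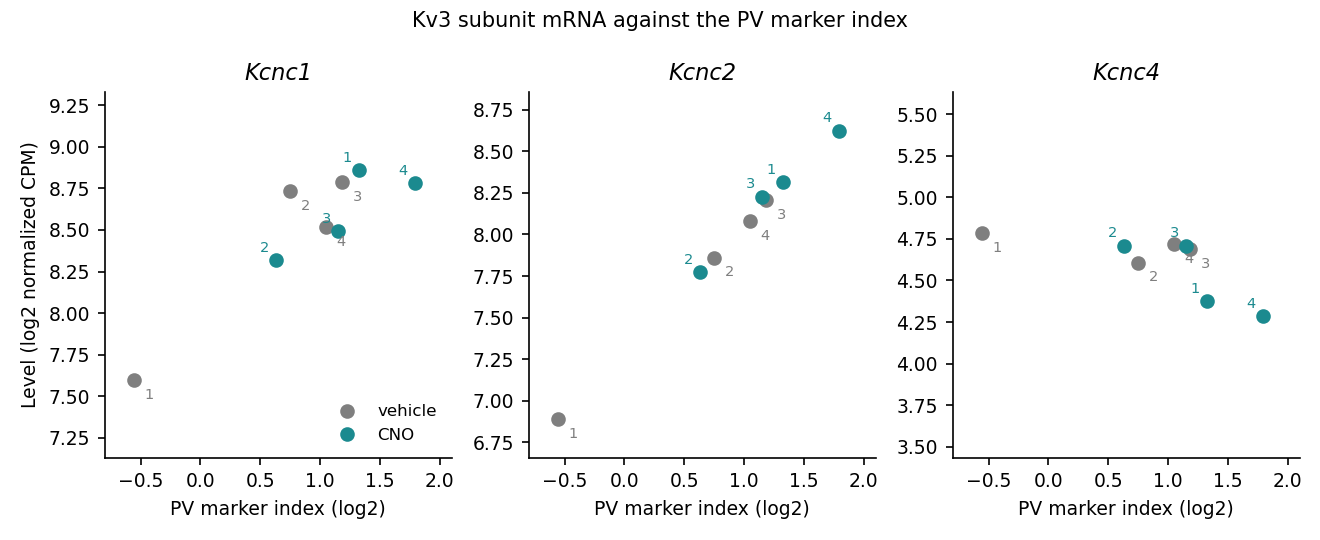
Log2 normalized CPM of each gene (vertical axes of equal span) against the PV marker index (log2) in the 8 samples, numbered by replicate and coloured by group. *Kcnc2* lies near a line through both groups (r = 0.999), *Kcnc1* scatters more (r = 0.906) and *Kcnc4* declines (r = -0.691).

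Balance among subunits was measured as the share of each gene in the summed TPM of all Kcnc genes in the files. The share of *Kcnc1* was 57.1, 55.3, 54.4 and 51.2% in CNO replicates 1 to 4 and 57.4, 59.8, 58.7 and 56.4% in vehicle replicates 1 to 4. The means were 54.5% ± 2.45 and 58.1% ± 1.47 (SD, n = 4 each), with CNO replicate 1 inside the vehicle range. This difference of -3.61 percentage points did not pass 0.05 (two-sided exact permutation test, p = 0.0571, adjusted over the 3 genes 0.171). Without CNO replicate 1 it was -4.47 points (exact permutation, p = 0.0286, not adjusted), since the other 3 CNO samples were below all vehicle samples. Without each of the other samples the exact permutation p was 0.0571 to 0.114.

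The share of *Kcnc2* was 16.4, 16.8, 19.2 and 20.1% with CNO and 15.2, 14.1, 16.6 and 17.3% with vehicle, in replicate order. Its means were 18.1% ± 1.81 and 15.8% ± 1.41 (SD, n = 4 each; two-sided exact permutation test, p = 0.143, adjusted 0.214). *Kcnc4* contributed 1.71 to 3.47% with CNO and 2.50 to 6.11% with vehicle (exact permutation, p = 0.371, adjusted 0.371), and its highest share was in vehicle replicate 1. The difference between the group means was -1.04 points, and -0.176 points without that sample.

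Genes whose pattern over the 8 samples was most like that of each member were taken by Pearson's r of log2 CPM among 11507 genes with a mean TPM above 5, as a description. For *Kcnc2* these were *Gpr176* (r = 0.9996), *Syt2* (0.998), *Osbpl9* (0.998), *Bloc1s6* (0.997) and *Tmbim4* (0.996). *Syt2* encodes a synaptotagmin that triggers fast transmitter release at PV+ interneuron terminals and is also in the index. For *Kcnc1* they were *Narfl* (0.997), *1110065P20Rik* (0.994), *Cntnap2* (0.991), *Rtn2* (0.991) and *Emc6* (0.991). *Cntnap2* encodes a membrane protein that helps place Kv1 channels along axons. For *Kcnc4* they were *Plekhb1* (0.981), *Trhde* (0.977), *6530402F18Rik* (0.97), *Sema6a* (0.970) and *Adam10* (0.970). An r above 0.9 was common for *Kcnc2* (2271 genes) and *Kcnc1* (1660 genes) and less so for *Kcnc4* (98 genes), and all points share the low vehicle replicate 1.

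Other pore-forming Kv subunits were lower with CNO more often than higher. Of the 37 others, 33 were tested, and the differences were above 0 in 12 and below 0 in 21, around a median of -0.080 (log2). Over all genes 50.4% were above 0 and 49.6% below, around a median of 0.0014. At an unadjusted p under 0.05, 2 were lower and 0 higher, where 2.65% and 1.44% of all genes were. These were *Kcna4*, which encodes the A-type subunit Kv1.4 and was at -0.38 (log2; standard error 0.13, adjusted p = 0.817, edgeR), and *Kcnv1*, a silent subunit, at -0.28 (standard error 0.12, adjusted p = 0.817, edgeR). The groups did not overlap in *Kcna4* and *Kcnd3*, which encodes Kv4.3 and was at -0.18 (standard error 0.087), that is in 2 of the 33 genes, where 2.42% of all genes had no overlap. Without vehicle replicate 1, an alternative chosen after seeing the data for each list, 13 were higher and 20 lower, with a median of -0.058.

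Genes of fast-spiking physiology, a list that shares 4 genes with the PV markers, had 18 of 20 members higher with CNO and a median log2 fold change of 0.26, where 50.4% of all genes were higher. Their summed level was 8124 to 11930 TPM with CNO and 4794 to 9467 TPM with vehicle, lowest in vehicle replicate 1. Without that sample 18 of 20 were still higher, but the median was 0.060. None had an unadjusted p under 0.05 in either fit. *Kcna1* and *Kcna2*, which encode axonal Kv1 channels, were at 0.19 (standard error 0.16) and 0.14 (standard error 0.13). *Esrrg*, which encodes a nuclear receptor, was at 0.51 (standard error 0.29). *Nefh*, a neurofilament subunit, was the only gene of the list in which the groups did not overlap, at 0.19 (standard error 0.11); 1 of 20 is near the 2.42% of all genes. The PV markers moved alike, with 12 of 12 higher, a median of 0.41 and 1 unadjusted p under 0.05 (*Gad2*, log2 fold change 0.52, standard error 0.21), where 1.44% of all genes were higher at that p. Without vehicle replicate 1 their median was 0.18, with 12 of 12 higher. In the fit on all samples 11 of 12 pyramidal cell markers were lower, with a median of -0.13. Of the other marker lists, 3 of 8 other interneuron genes, 1 of 6 astrocyte, 0 of 5 oligodendrocyte, 0 of 6 microglia and 4 of 4 endothelial genes were higher with CNO, with medians of -0.15, -0.15, -0.23, -0.22 and 0.29. Without vehicle replicate 1 the medians were -0.074 for pyramidal cell markers and -0.17, -0.087, -0.18, -0.13 and 0.23 for these lists in the same order.

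Among 24 partners and modulators of Kv channels, 22 were tested, 13 with a difference above 0 and 9 below. The median was 0.024 (log2), and 0 had an unadjusted p under 0.05. Without vehicle replicate 1 the split turned to 9 above and 13 below 0, with a median of -0.014. *Kcne1* and *Kcne3*, which encode small ancillary subunits, had too few counts to be tested, and *Kcne2* and *Kcne4* reached mean levels of 0.332 and 1.12 TPM. *Kcnab2*, a cytosolic beta subunit, had the largest difference of the list, at 0.40 (standard error 0.23, adjusted p = 0.817, edgeR). *Fmr1*, whose protein binds *Kcnc1* mRNA, was at -0.080 (standard error 0.084).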

How the data were processed

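RNA-seq of HA-tagged ribosome pulldowns covered 8 samples, 4 CNO and 4 vehicle. After trimming (Trim Galore), the authors used STAR for alignment to GRCm38 (mm10) with the iGenomes annotation, and Salmon and tximport for gene quantification; versions of STAR and Salmon are not given in the sources used here. They deposited estimated counts per gene without normalization, and TPM, which have the same total in each sample. Columns were matched to samples by their names.

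Counts were rounded and analysed with edgeR 4.0.16 in R 4.3.3. A gene below 10 counts in at least 4 samples was dropped. Library scaling was TMM, and both groups entered a quasi-likelihood fit over 17495 genes, with p-values adjusted after Benjamini and Hochberg. The biological coefficient of variation was 0.183. Log2 CPM used a prior count of 2. Standard errors and intervals came from the fitted coefficients. Single values were compared by exact permutation (Python 3.11.15, SciPy 1.17.1, matplotlib 3.10.9).

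Alternatives used DESeq2 1.42.0, limma 3.58.1 on log2 TPM, robust dispersion, other scalings and filters, a replicate block, the PV marker index, and each sample left out. Kv3 members, lists of Kv subunits, partners, fast-spiking genes and cell type markers, and the rule for named genes (members, the 5 most alike to each, and list genes) were chosen with earlier results of these data known. Motifs were spelled out in the text. Positions came from GENCODE M21 (GRCm38), promoter windows from RefSeq on GRCm38.p6. The summed Kcnc TPM holds 1 gene that is not reported here. P-values measure the spread between these pooled samples.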

Additional observations from a re-analysis of the deposited data

Results flagged for a closer look

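The share of *Kcnc4* in the summed TPM of the Kcnc genes was 6.11% in vehicle replicate 1, far above the 2.50 to 2.91% of the other vehicle samples. The distance to the next vehicle sample was 0.885 of the whole span. Among 16 sets of values examined this way, 1 held such a sample, where chance gives about 0.8. In this sample *Kcnc1* and *Kcnc2* were the lowest of the 8 samples and the PV marker index was -0.55; their part in the share was not tested.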

How the results depend on the processing

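Over 18 alternatives, *Kcnc2* stayed higher with CNO (log2 fold change 0.015 to 0.57) and *Kcnc4* lower (-0.25 to -0.084), and the adjusted p of the 3 genes stayed above 0.05, from 0.473 to 1.00. The log2 fold change of *Kcnc1* reversed to -0.17 with the PV marker index as a covariate and to -0.060 without vehicle replicate 1. With each sample left out it ranged from -0.060 to 0.27, that of *Kcnc2* from 0.20 to 0.57, and that of *Kcnc4* from -0.24 to -0.10. The count of genes called was 0, but 10 with DESeq2's Wald test, 12 with the likelihood ratio test on robust dispersion, 4 with no filter on low counts, and 0 to 2 with each sample left out (2 without CNO replicate 1); the cause was not tested. None of the 3 genes described was among them.

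Same-numbered samples correlated at -0.030 to 0.24 in their deviations from the group means, and differently numbered ones at -0.40 to 0.43. These values do not show a pairing by number and, with so wide a spread, cannot exclude one. With the replicate block the log2 fold changes were 0.20 for *Kcnc1*, 0.47 for *Kcnc2* and -0.18 for *Kcnc4*, and 0 genes were called.

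The correlation of *Kcnc1* with the index fell to 0.600 without the 2 samples farthest from the median and ranged from 0.602 to 0.954 with each sample left out. That of *Kcnc2* ranged from 0.995 to 1.00. That of *Kcnc4* was -0.796 on the log2(TPM + 1) scale (exact permutation, p = 0.0149) and -0.759 to -0.541 with each sample left out. The exact permutation p was 0.0413 without CNO replicate 3, 0.0452 without vehicle replicate 3 and 0.0498 without vehicle replicate 4. Without each of the other samples it was 0.0538 to 0.165. The difference in share between CNO and vehicle ranged from -4.47 to -2.52 points for *Kcnc1*, 1.64 to 2.89 for *Kcnc2* and -1.38 to -0.176 for *Kcnc4* with each sample left out, the last of these without vehicle replicate 1. Among the 3 members only, a denominator chosen after seeing the data, it was -2.49, 3.73 and -1.23 points (exact permutation, p = 0.229, 0.0857 and 0.400). Counts were at least 924 for each gene and sample, far above the floor of 3.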

Other observations

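*Kcnc1* made up 19.4 to 25.7% of the summed TPM of all 40 Kv pore subunit genes in 7 samples and 14.5% in vehicle replicate 1. *Kcnc2* made up 5.88 to 8.97% in those 7 samples and 3.84% in vehicle replicate 1, and *Kcnc4* 0.765 to 1.21% and 1.54%. Leaving out vehicle replicate 1 lowered the coefficient of variation of TPM over samples from 21.7 to 12.2% for *Kcnc1* and from 26.4 to 16.1% for *Kcnc2*, and left that of *Kcnc4* near its value (15.5 and 14.7%).

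Counts per TPM, relative to the median of 12307 genes with at least 100 counts in each sample, reflect the mean transcript length used in quantification. For *Kcnc1* this ratio varied from -0.060 to 0.061 (log2) around its mean over samples, and for *Kcnc2* and *Kcnc4* from -0.018 to 0.019, with CNO and vehicle overlapping.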
